A study of Mus musculus with 21 samples.

Results

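Sirpa, Cd47 and Cd24a encode 3 cell surface proteins that take part in the signals by which a cell restrains the macrophages that meet it, and they are described here in N202 mouse mammary tumor cells adapted to different tissues. The 3 genes are 3 of the 19937 genes that a probe set of the array names on its own. Each was read from 1 probe set, chosen by the highest mean over the 21 arrays, and all 3 were among the 7300 genes kept by a filter on low values. Sirpa has a single probe set (10476021), Cd24a has a single probe set (10362896), and Cd47 has a pair (10436182, which was used, and 10436196).

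N202.1A cells derive from tumors of the mammary gland in FVB-NeuN mice, in which the MMTV promoter drives the rat HER-2/neu proto-oncogene, and every group measured here also carries an H2B-GFP construct for sorting. Spheroids were grafted onto minced, revascularized C57BL/6 tissue in a skinfold chamber of female nude mice, hosts that lack T cells but keep macrophages and other innate immune cells. One passage was 21 days on tissue, followed by culture, G418 selection and GFP sorting, and RNA was taken from cells grown again in culture, so that the values are those of cultured cells and not of cells within tissue. The groups were brain P1, P2, P3 and P4 (2 arrays each, the second labelled a technical replicate), bone marrow P1 to P4, lung P1 to P4 and breast P1 (1 array each), P1 and P2 of a second brain experiment, labelled a biological replicate (1 array each), and the parental cells, P0 (2 arrays). Each array of a pair had a separate culture of one adapted cell line, so that the p-values below measure the spread between cultures and not between grafted animals.

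SIRPalpha, the product of Sirpa, is a receptor with inhibitory motifs in its cytoplasmic tail, best known on macrophages and neurons. When it binds CD47 on a neighboring cell it recruits the phosphatases SHP-1 and SHP-2 and damps engulfment, for which CD47 is called a "don't eat me" signal. CD24, a small and heavily glycosylated protein on a lipid anchor, binds Siglec-G in the mouse and the related Siglec-10 in humans, and it is also a common marker of mammary epithelial cells. A tumor cell usually presents CD47 and CD24, whereas SIRPalpha is usually read on the cell that does the engulfing.

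Of the 3 genes, RefSeq's promoter table (build GRCm38.p6) has entries for Cd47. Its first entry is shown, without the bases after the start site, because neither Sirpa nor Cd24a had a matching entry there. It spans the 250 bases at chr16:49855404-49855653 on the plus strand, and the capitals mark each CG pair. The stretch holds 30 such pairs, against a median of 6 over the 32851 entries of the table, and 5.94% of the entries hold at least as many. The letters describe the stretch only, since the arrays measured no methylation or binding there.
Cd47: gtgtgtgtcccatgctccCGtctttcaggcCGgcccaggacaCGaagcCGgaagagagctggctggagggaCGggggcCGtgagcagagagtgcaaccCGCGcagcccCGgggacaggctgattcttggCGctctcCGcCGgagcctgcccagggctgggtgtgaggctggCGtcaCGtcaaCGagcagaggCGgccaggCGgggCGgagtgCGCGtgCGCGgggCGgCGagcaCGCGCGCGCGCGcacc

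The values are log2 RMA signals, so that a difference of 1 is a 2-fold change in signal. Arrays give no read depth, and it is the number of arrays that limits the precision. A level of 7.33 was the lowest group mean that let a probe set through the filter on low values, and it serves below as a rough limit for a dim signal. Of 11 markers of mammary tumor epithelium, 10 exceeded it on some array, led by Krt8 and Krt18, the keratins of simple epithelium. Krt19 was the exception, at 5.78 or less, and Elf3 (5.73 to 7.46) exceeded it on the bone marrow P3 array alone. The mean over all 11 markers lay between 9.58 and 9.99 on every array. All comparisons with P0 share the same 2 parental arrays. The median over all kept genes was shifted by -0.10 at brain P3 and by -0.19 at brain P4 relative to P0.

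Sirpa was the member that varied most. Across the brain passages its level was 6.33 and 6.86 at P0, 9.16 and 9.20 at P1, 9.06 and 8.91 at P2, 5.72 and 6.02 at P3, and 6.47 and 6.46 at P4. The 4 arrays of brain P1 and P2 lay above all 17 other arrays, of which the highest read 8.08, and the brain P3 arrays lay below both P0 arrays. The study grouped Sirpa with other genes by their course over these same brain arrays, so these levels are given as a description without a test. The mean log2 difference from P0 was 2.58 (SE 0.21, n = 2 and 2) at brain P1, a 6.0-fold higher signal, and 2.39 (SE 0.21) at brain P2, 5.23-fold higher. The test called 5.55% and 13.3% of the kept genes in these comparisons, from which nothing is read here for Sirpa. From P2 to P3 the mean dropped by 3.12 on the log2 scale, an 8.66-fold difference. Without the first P0 array the differences from P0 were 2.32 and 2.13, and without the second they were 2.85 and 2.65. Both P0 arrays lie under the limit of 7.33, and Sirpa entered the kept genes only through the 6 groups in which it was high, so the size of its change from P0 is less certain than its direction.

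**Figure D1:**
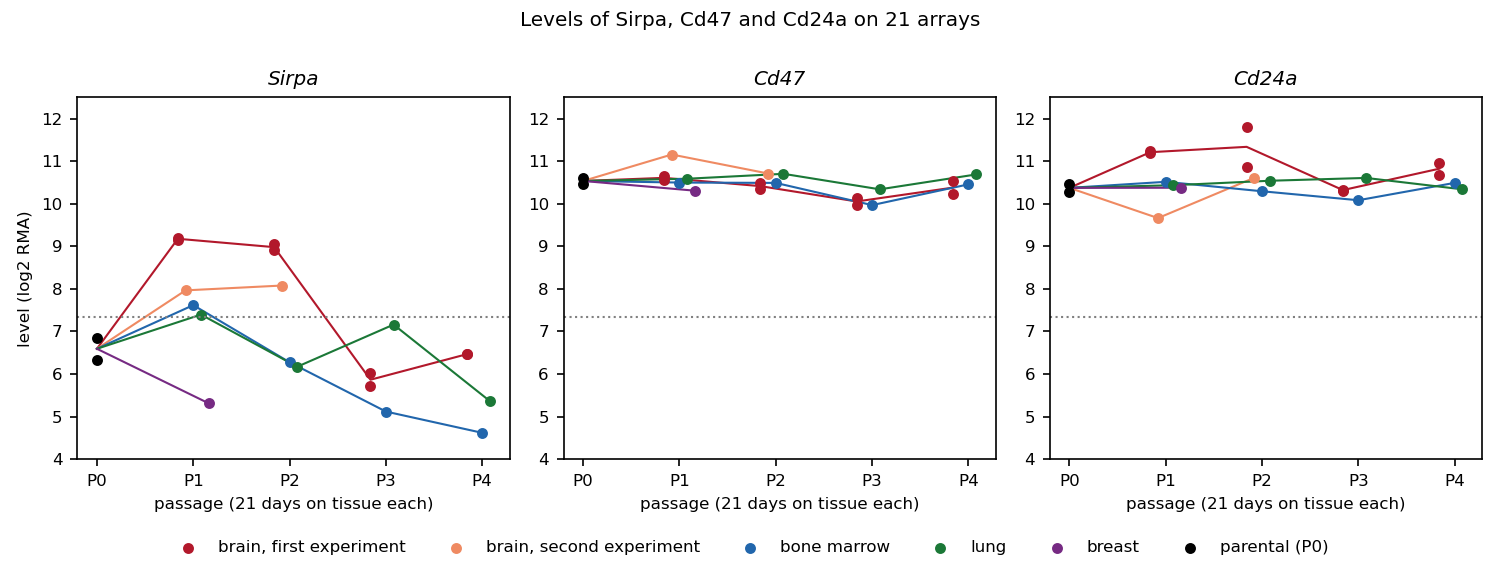
Level of each gene (log2 RMA, vertical axis) on each of the 21 arrays by passage, with points for single arrays, lines through group means from the shared P0 mean, and a dotted line at the level of 7.33. Sirpa lay between 8.91 and 9.20 in the first brain experiment at P1 and P2 and at 8.08 or less on the other 17 arrays, while Cd47 and Cd24a stayed between 9.66 and 11.80 throughout.

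The arrays of the second brain experiment were not those on which the gene was listed, although the P0 arrays were. Sirpa read 7.97 at P1 and 8.08 at P2 of this experiment, against 6.33 and 6.86 in the P0 arrays, so that both adapted arrays lay above both parental ones and below all 4 arrays of early brain in the first experiment. The mean log2 difference from P0 was 1.43 (SE 0.21, 95% CI 0.95 to 1.91, n = 2 and 2), 2.69-fold, and it passed the test in limma (adjusted p = 0.046), where 0.315% of the kept genes were called. At P1 alone the difference was 1.37 (adjusted p = 0.042, 1.55% of genes called), a call lost without the filter, with a variance trend, and without either P0 array (adjusted p of 0.42, 0.070, 0.11 and 0.055). At P2 alone it was 1.49 (adjusted p = 0.16), in a comparison in which limma called 0 genes, or 0%, with 531 at an unadjusted p under 0.05. The experiment can also be set against bone marrow and lung cells of the same passages, which involves neither P0 nor the brain arrays on which the gene was listed. Its mean of 8.02 exceeded the 6.87 of the 4 marrow and lung arrays by 1.16 (SE 0.18, 95% CI 0.74 to 1.57, adjusted p = 0.031), with 0.849% of genes called. Those arrays read 7.62 and 6.28 at marrow P1 and P2, and 7.40 and 6.17 at lung P1 and P2. At P1 the second experiment stood 0.35 above marrow P1, less than the 0.52 between the P0 arrays. A call here means an adjusted p under 0.05 over all kept probe sets. The call against P0 was lost without the filter, with a variance trend, and without the first P0 array (adjusted p of 0.50, 0.069 and 0.13), and that against marrow and lung was lost without the filter and with a variance trend (0.34 and 0.053). All 3 were also lost once 5 arrays whose dimmest probe sets read highest were dropped (the second arrays of brain P1 to P4 and that of lung P1), with adjusted p of 0.32, 0.25 and, at P1 alone, 0.23. The difference between the 2 brain experiments was not tested. The study's own model placed both passages of the second experiment at later points of its first brain series. Passages with the same number may therefore differ in stage.

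On bone marrow and lung Sirpa read above both P0 arrays at the first passage and below both at the last. In the marrow series the level was 6.33 and 6.86 at P0, 7.62 at P1, 6.28 at P2, 5.12 at P3 and 4.62 at P4. In the lung series it was 7.40 at P1, 6.17 at P2, 7.16 at P3 and 5.36 at P4, so that the third passage again read above P0. The single breast P1 array read 5.31. Of these single-passage comparisons with P0, bone marrow P4 passed the test, with a log2 difference of -1.97 (SE 0.26, 95% CI -2.56 to -1.39, n = 1 and 2, adjusted p = 0.020), where the lone array is assumed to vary like the pairs. All 3 values lie under the limit of 7.33, and that of marrow P4 below the median of its array, so that the size of this difference is uncertain. Without the second P0 array this value was -1.71, with an adjusted p of 0.075, and the call was also lost without the filter and with a variance trend (0.29 and 0.074). At bone marrow P1, P2 and P3 the differences were 1.03, -0.32 and -1.47 (adjusted p of 0.70, 0.99 and 0.086), and at lung P1 to P4 they were 0.80, -0.42, 0.57 and -1.23 (0.33, 1.0, 1.0 and 0.23). The shares of genes called were 0.123%, 0.151%, 0.274% and 0.219% at bone marrow P1 to P4 and 0.151%, 0.0411%, 0.0548% and 0.0822% at lung P1 to P4. At breast P1 the difference was -1.28 (adjusted p = 0.13, 0.26% of genes called).

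Averaged over the 4 passages, Sirpa differed from P0 by -0.69 on bone marrow (adjusted p = 0.30) and by -0.07 on lung (adjusted p = 1.0), with 0.37% and 0.205% of genes called. Marrow cells, at 4.62 to 7.62, overlapped with lung cells, at 5.36 to 7.40, and their means differed by -0.62 (SE 0.15, adjusted p = 0.16, 0.123% called). At brain P3 both arrays lay under both P0 arrays, but the difference of -0.73 did not pass (adjusted p = 0.20, 0.658% called), and brain P4 differed from P0 by -0.13 (adjusted p = 0.80, 1.01% called). From brain P3 to P4 the level changed by 0.60 (adjusted p = 0.20, 0.63% called). Late brain cells (P3 and P4) stood 0.60 above late marrow and lung cells (adjusted p = 0.30, 0.0411% called).

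In the order of the 16 group means Sirpa ran from 9.18 at brain P1 to 4.62 at bone marrow P4, a span of 4.56 whose lower part is dim. The marrow P4 value lies below the median over all probe sets of its own array (4.98) and no fold is given for it. Brain P1 and P2 headed the order, followed by both passages of the second brain experiment, bone marrow P1 and lung P1. Among its 15 pairs of neighbors, 2 were farther apart than the largest difference between 2 arrays of one group, which was 0.52 between the P0 arrays. These were brain P2 above second-experiment P2 (gap 0.90) and lung P3 above P0 (gap 0.57).

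Because SIRPalpha is a macrophage protein, markers of macrophages and microglia were read beside it. In these bulk cultures more cells of a type and more RNA per cell cannot be told apart. Of 15 such markers, 14 stayed at 6.56 or less on every array. The pan-leukocyte phosphatase Ptprc (CD45) ranged from 3.52 to 4.55, the integrin Itgam (CD11b) from 3.30 to 3.94, Adgre1 (F4/80) from 3.15 to 4.23 and the receptor Csf1r from 4.38 to 5.69. The mean over the list lay between 4.45 and 4.61 in brain P1 and P2, between 4.29 and 4.31 in the second brain experiment, and between 4.26 and 4.31 at P0.

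The exception was Cd68, which encodes a lysosomal membrane protein that is abundant in macrophages. It read 8.27 and 7.62 at brain P1 and 8.03 and 8.48 at brain P2, against 6.03 and 5.99 at P0, and its log2 differences from P0 were 1.94 (adjusted p = 0.017) and 2.24 (adjusted p = 0.0060). Both P0 arrays of Cd68 lie under the limit of 7.33, and the gene was kept only through groups in which it was high, brain P1 and P2 among them. The sizes of its differences are therefore less certain than their direction, and its calls are not independent of the filter. At brain P3 Cd68, like Sirpa, was lower than at brain P2, with 6.60 and 6.87 (difference -1.52, adjusted p = 0.016), and late brain cells differed from early ones by -0.87 (adjusted p = 0.031). Cd68 was at 7.22 and 8.22 at brain P4 and at 7.49 at lung P4, where Sirpa was at 6.47, 6.46 and 5.36. In the second brain experiment it read 6.82 and 6.58. The part of Cd68 in the Sirpa levels was not tested.

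**Figure D2:**
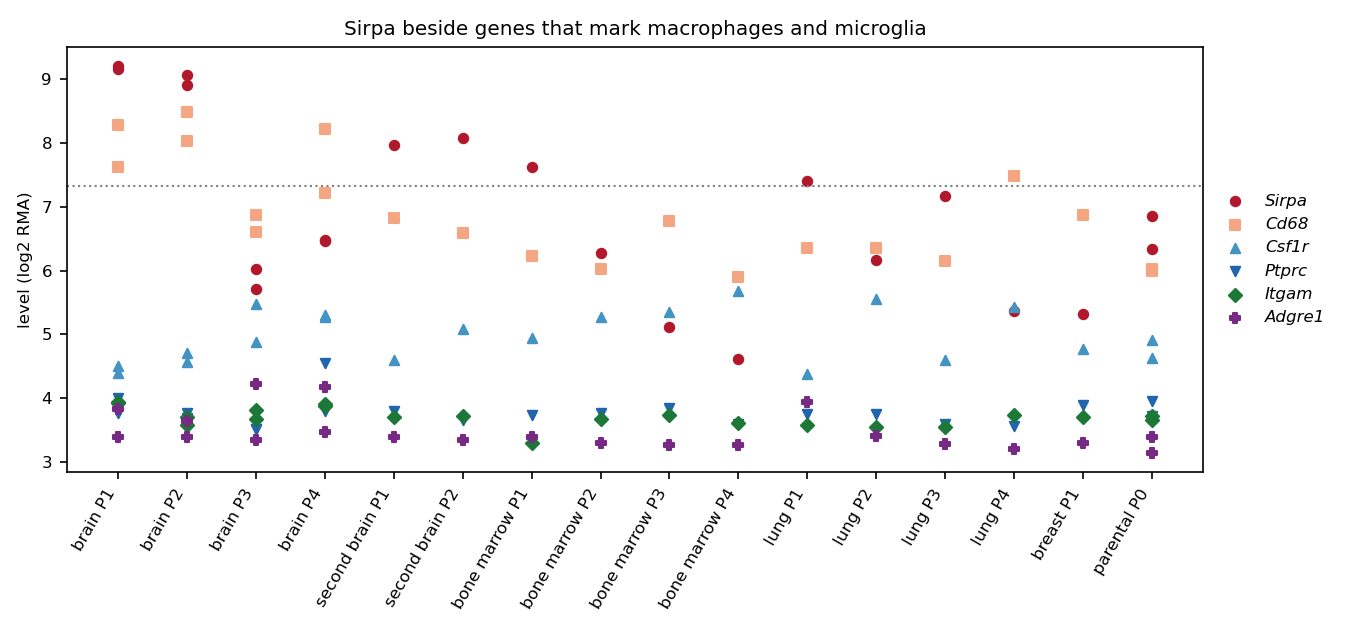
Levels (log2 RMA, vertical axis) of Sirpa, Cd68, Csf1r, Ptprc, Itgam and Adgre1 on each array, with the groups along the horizontal axis and a dotted line at 7.33. Sirpa and Cd68 both exceeded the line on the 4 arrays of brain P1 and P2 and at most one of them did on any other array, while the other 4 genes stayed at 5.69 or less on all 21 arrays.

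Markers of other cell types were read in the same way, and most of them stayed under 7.33 on every array. The lymphocyte and granulocyte list (11 markers measured, Camp and Cd3e among them), the fibroblast and endothelium list (12, with Col1a1 and Col3a1 at 6.49 or less) and the erythroid list (3, Epor and Klf1 among them) had no member above 7.33 on any array. Of 10 neuron markers Map2 exceeded it, with 7.85 to 9.0 over all arrays and 8.87 on average at P0, while Snap25, the second highest, reached 5.31. Of 9 astrocyte and oligodendrocyte markers Cnp (7.31 to 9.47) and Mbp (6.66 to 7.50) exceeded 7.33 on some array. Cnp did so also in P0 cells, which had met no tissue, with 8.88 on average. Mbp averaged 7.24 at P0, under that limit.

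Cd47 was high and even. Its level lay between 9.97 and 11.16 on the 21 arrays, above that of most kept genes (92.8% had a lower mean signal, although probe sets differ in how brightly they report). Across the brain passages it read 10.60 and 10.47 at P0, 10.65 and 10.57 at P1, 10.49 and 10.35 at P2, 9.97 and 10.14 at P3, and 10.54 and 10.22 at P4. The P1 and P2 arrays overlapped with those of P0, and the P3 arrays lay under both. The marrow series read 10.50, 10.49, 9.97 and 10.46 at P1 to P4 and the lung series 10.59, 10.70, 10.34 and 10.69, with 10.31 at breast P1. The second brain experiment held the highest value, 11.16 at P1, and read 10.71 at P2.

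Cd47 did not pass the test in any of its 25 comparisons. At brain P1 the log2 difference from P0 was 0.07 (SE 0.18, 95% CI -0.33 to 0.48, n = 2 and 2, adjusted p = 0.89), in a comparison that called 5.55% of genes, and at brain P2 it was -0.12 (95% CI -0.53 to 0.29, adjusted p = 0.73), where 13.3% were called. On the probe set used, the intervals leave room for a rise of at most 0.48 and 0.29 on the log2 scale. In 5 comparisons the interval left out 0 before adjustment. These were second-experiment P1 against P0, at 0.62 (95% CI 0.12 to 1.12, adjusted p = 0.21), bone marrow P3 against P0, at -0.57 (95% CI -1.07 to -0.07, adjusted p = 0.58), brain P3 against P0, at -0.48 (95% CI -0.89 to -0.08, adjusted p = 0.33), the second experiment against early marrow and lung cells, at 0.36 (adjusted p = 0.35), and late against early brain, at -0.29 (adjusted p = 0.12, 27.5% called). The second experiment as a whole differed from P0 by 0.40 (95% CI -0.01 to 0.80, adjusted p = 0.41). Averaged over their passages, marrow and lung cells differed from P0 by -0.18 and 0.04 (adjusted p of 0.88 and 1.0) and from each other by -0.23 (adjusted p = 0.50).

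The other probe set of Cd47 was dimmer, at 7.97 to 9.58, and correlated with the first at r = 0.72 over the 21 arrays, which share their RNA. At brain P1 and P2 it differed from P0 by 0.09 and 0.43 (adjusted p of 0.91 and 0.34). The brain P2 value exceeds the upper end of the first probe set's interval, 0.29. It read 7.97 and 8.74 at brain P3, against 9.31 and 9.45 at brain P2, and its log2 difference of -1.02 passed the test (adjusted p = 0.026), where 23.7% of genes were called. The probe set used above differed by -0.36 in the same comparison (adjusted p = 0.19), so the drop from brain P2 to P3 was called on 1 probe set of the 2. In the order of group means, 1 of the 15 gaps between neighbors of Cd47 was wider than its largest pair difference of 0.32, that between second-experiment P1 (11.16) and P2 (10.71).

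Cd24a read between 9.66 and 11.80 and was higher in early brain cells, by less than Sirpa was. Across the brain passages it read 10.28 and 10.47 at P0, 11.19 and 11.23 at P1, 10.88 and 11.80 at P2, 10.34 and 10.31 at P3, and 10.97 and 10.68 at P4. All 4 arrays of P1 and P2 lay above both P0 arrays, while P3 overlapped with P0. The study placed Cd24a in lists drawn from the same early brain arrays, so these values carry no test. The mean log2 difference from P0 was 0.84 (SE 0.28, n = 2 and 2) at brain P1, 1.79-fold higher, and 0.96 (SE 0.28) at brain P2, 1.95-fold higher. The brain P2 value rested on its second array, since it was 1.43 without the first array and 0.50 without the second.

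Of the remaining groups, marrow, lung and breast cells lay between 10.08 and 10.61, against 10.28 and 10.47 at P0. Marrow cells read 10.52, 10.29, 10.08 and 10.49 at P1 to P4, lung cells 10.44, 10.54, 10.61 and 10.34, and breast P1 cells 10.38. The second brain experiment read 9.66 at P1, the lowest of the 21 values, and 10.61 at P2, so that its arrays fell on either side of both P0 arrays. Its difference from P0 was -0.71 at P1 (95% CI -1.48 to 0.06, adjusted p = 0.36), 0.24 at P2 (95% CI -0.53 to 1.01, adjusted p = 0.95) and -0.24 on average (SE 0.28, 95% CI -0.87 to 0.39, adjusted p = 0.81). For Cd24a, too, the experiments were not tested against each other. Against early marrow and lung cells it was -0.31 (adjusted p = 0.66).

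Brain P3 and P4 differed from P0 by -0.05 and 0.45 in Cd24a (adjusted p of 0.96 and 0.48), marrow and lung passages by -0.03 and 0.11 (both adjusted p = 1.0) and breast P1 by 0.00 (95% CI -0.77 to 0.77, adjusted p = 1.0). That interval, from 1 array, leaves room for a change of up to 0.77 in either direction. No gap between neighbors in the order of its group means exceeded the largest pair difference of 0.93, that of brain P2.

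**Figure D3:**
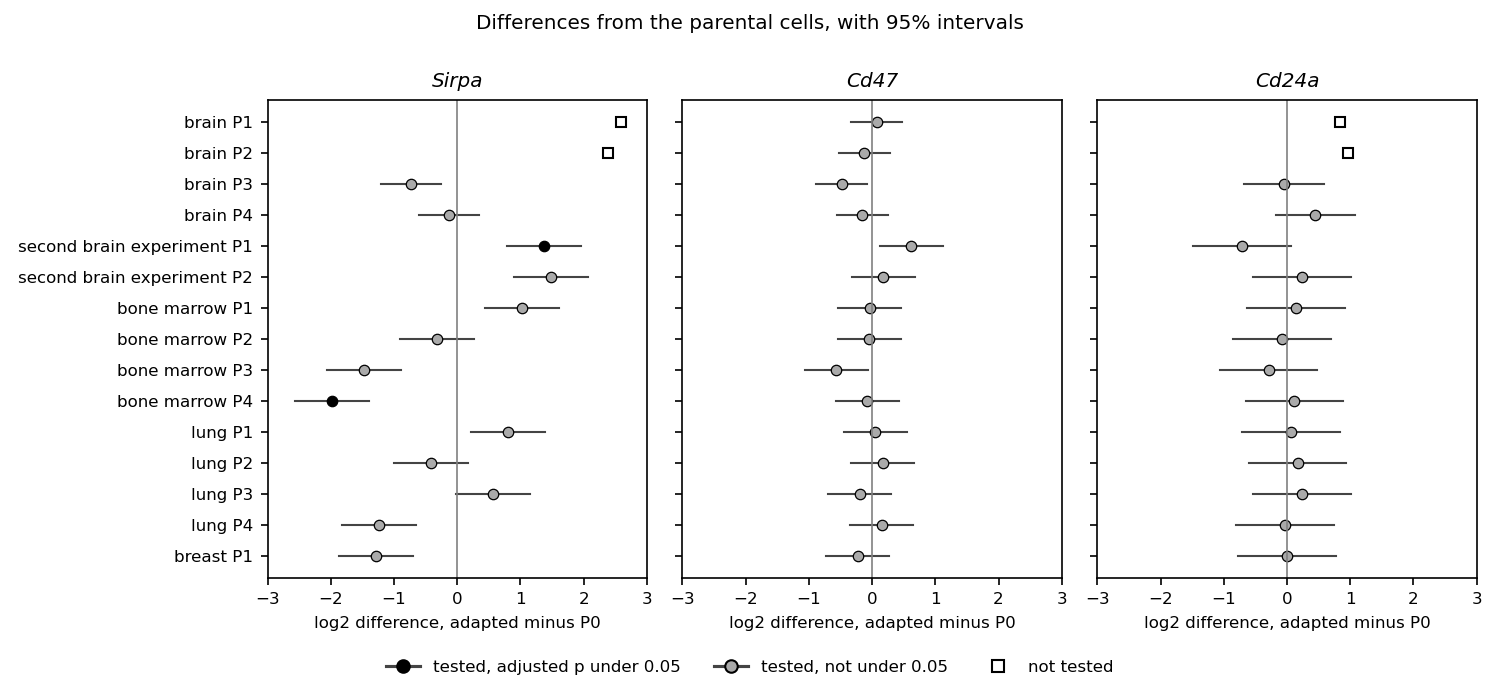
Log2 difference of each adapted group from P0 (horizontal axis) for the 3 genes, with bars for 95% intervals from limma, black points for an adjusted p under 0.05, grey points for the other tests and open squares for values given without a test. Sirpa spans -1.97 to 2.58, while Cd47 stays between -0.57 and 0.62 and Cd24a between -0.71 and 0.96.

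The partners of the members were read whatever their level. Thbs1, which encodes thrombospondin 1, a secreted ligand of CD47, was among the bright genes at 12.39 to 13.39. It read 12.46 and 12.59 at brain P1 and 12.39 and 12.39 at brain P2, against 13.18 and 12.71 at P0, and the differences of -0.42 and -0.55 did not pass (adjusted p of 0.34 and 0.15). Qpctl, the enzyme that modifies the end of CD47 at which SIRPalpha binds, lay between 6.27 and 7.90. Ptpn11 (SHP-2) lay between 9.46 and 10.11 and Ptpn6 (SHP-1), which is best known in blood cells, between 6.69 and 7.64. None of these 3 passed the test at brain P1 or P2, with adjusted p of 0.20 or more. Siglecg, the receptor of CD24 in the mouse, stayed at 6.10 or less and was not kept, and L1cam, an adhesion molecule that binds CD24 in the nervous system, lay between 7.23 and 8.95 without a call.

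The counts for the lists below stand against 5.55% of all kept genes called at brain P1 and 13.3% at brain P2. Of the signalling genes around SIRPalpha, 8 of 12 were kept. In brain P1 and brain P2 0 rose and 1 fell, Fyb, which encodes an adaptor protein, with a list median of -0.05 and 0.07 against -0.02 and -0.05 over all genes. Fyb read 5.59 and 5.62 at brain P1 and 5.16 and 5.06 at brain P2, against 6.63 and 7.0 at P0, all below 7.33, and its differences were -1.21 (adjusted p = 0.046) and -1.71 (adjusted p = 0.0082). The adaptor Skap2 and the kinase Src, which phosphorylates the SIRPalpha tail, were lower at brain P3 than at brain P2, with differences of -1.79 and -1.11 (adjusted p of 0.0064 and 0.024), and were named after their values were seen.

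Of 21 partners and processing genes of CD47, 12 were kept. Itga2, a collagen-binding integrin subunit, rose to 9.78 and 9.07 at brain P2, against 8.27 and 7.60 at P0 (difference 1.49, adjusted p = 0.015), and Ubqln2, a ubiquilin that binds the CD47 tail, rose by 0.81 (adjusted p = 0.048). The inhibitory G protein subunit Gnai3 fell at brain P2 (difference -0.80, adjusted p = 0.032), and Bnip3, a mitochondrial death protein that interacts with CD47, fell at brain P1 to 5.90 and 5.26, against 6.94 and 8.48 at P0 (difference -2.12, adjusted p = 0.035). In all, 0 rose and 1 fell at brain P1 and 2 rose and 1 fell at brain P2, with list medians of 0.02 and -0.05, where 5.55% and 13.3% of all kept genes were called. In the second experiment Itga2 exceeded early marrow and lung by 1.80 (adjusted p = 0.026), with 9.73 and 8.53 against 6.68, 8.47, 6.30 and 7.87. Against P0 the same arrays differed by 1.20 and did not pass (adjusted p = 0.16), and marrow P1 and lung P1 differed from P0 by -1.26 and -1.63 (adjusted p of 1.0 and 0.14).

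Of 14 partners of CD24, 5 were kept, and at brain P1 0 of them were called. At brain P2 0 rose and 2 fell, with a list median of -0.68. These were the chaperone Hsp90b1 (difference -0.77, adjusted p = 0.040) and the innate immune receptor Tlr2 (difference -1.32, adjusted p = 0.039), which the study also listed from these arrays. Tlr2 then reached 10.09 and 9.53 at brain P4, against 7.49 and 7.92 at brain P3, a difference of 2.11 (adjusted p = 0.040).

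Other surface proteins that restrain immune cells moved in both directions in early brain cells. Of 18 genes, 7 were kept, 2 rose and 1 fell at brain P1, and 3 rose and 1 fell at brain P2, with list medians of -0.16 and 0.70. Ceacam1, an adhesion molecule with inhibitory motifs, read 10.01 and 10.10 at brain P1, against 7.94 and 8.59 at P0, a difference of 1.79 (adjusted p = 0.0096), and 1.99 at brain P2 (adjusted p = 0.0041). Cd200, whose receptor inhibits myeloid cells, was higher by 1.00 and 0.95 (adjusted p of 0.019 and 0.014), with 9.79 and 9.58 at brain P1, against 8.74 and 8.63 at P0. Cd59a, which blocks the terminal complement complex, rose at brain P2 by 1.68 (adjusted p = 0.015). H2-Q4, a class I histocompatibility gene whose close relatives can share probes, differed by -2.06 and -1.56 (adjusted p of 0.0022 and 0.0055).

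In the second brain experiment Ceacam1 read 6.50 and 6.05, against 7.94 and 8.59 at P0, and its difference of -1.99 passed in the opposite direction (adjusted p = 0.036). Cd200 read 8.95 and 8.58 in the second experiment. Ceacam1 also fell at breast P1 (difference -2.26, adjusted p = 0.038).

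Of 31 genes for engulfment signals and receptors, 13 were kept, 1 rose and 0 fell at brain P1, and 3 rose and 3 fell at brain P2, with list medians of -0.06 and -0.04. Pros1 (protein S), a bridge between exposed phosphatidylserine and the receptors Tyro3, Axl and Mertk, rose by 1.17 at brain P1 (adjusted p = 0.043) and by 2.01 at brain P2 (adjusted p = 0.0035), where it read 8.40 and 8.90, against 6.54 and 6.74 at P0. Its P0 arrays lie under the limit of 7.33, and it was kept only through brain P1 and P2, where it was high. Sftpd, a collectin that opsonizes microbes, rose at brain P2 by 2.75 (adjusted p = 0.015), although its P0 arrays, 6.02 and 7.98, were far apart. It was kept only through brain P1, brain P2 and lung P3, where it was high. The phosphatidylserine-binding annexins Anxa1 and Anxa5 fell at brain P2, with differences of -1.02 (adjusted p = 0.0081) and -0.78 (adjusted p = 0.022). The count also includes Lbp, higher by 3.22 (adjusted p = 0.026), and Calr, with a difference of -0.79 (adjusted p = 0.023), which were named after their values were seen. The P0 arrays of Lbp, 6.11 and 8.65, were also far apart. In the second brain experiment Pros1 read 6.32 and 5.83, Sftpd 6.86 and 6.35, and Lbp 7.49 and 6.62. No array of that experiment lay above both P0 arrays in any of these genes. Calr encodes calreticulin, an "eat me" signal when exposed on the cell surface.

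Of 16 mammary surface markers that are used together with CD24, 10 were kept, 1 rose and 0 fell at brain P1, and 2 rose and 0 fell at brain P2, with list medians of 0.01 and 0.00. With so few kept genes these counts are close to the 5.55% and 13.3% called over all genes. The receptor Kit, a marker of luminal progenitors, read 9.15 and 9.39 at brain P1 and 10.07 and 9.67 at brain P2, against 4.91 and 5.12 at P0, with differences of 4.25 (adjusted p = 4.6e-05) and 4.85 (adjusted p = 3.7e-05). It read 7.56 and 6.75 in the second experiment (difference 2.14, adjusted p = 0.015). Both P0 arrays of Kit lie under the limit of 7.33, and the gene was kept only through brain groups in which it was high. The size of its change from P0 is therefore less certain than its direction. Itga2 was the other gene of the 2. Kit, Itga2, Sftpd, Lbp, Anxa1 and Tlr2 also stand in lists that the study drew up on these arrays, so their brain calls are not independent evidence. Over the pooled marrow and lung passages 0 genes of the 6 lists were called against P0, where 0.37% and 0.205% of all kept genes were.

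**Figure D4:**
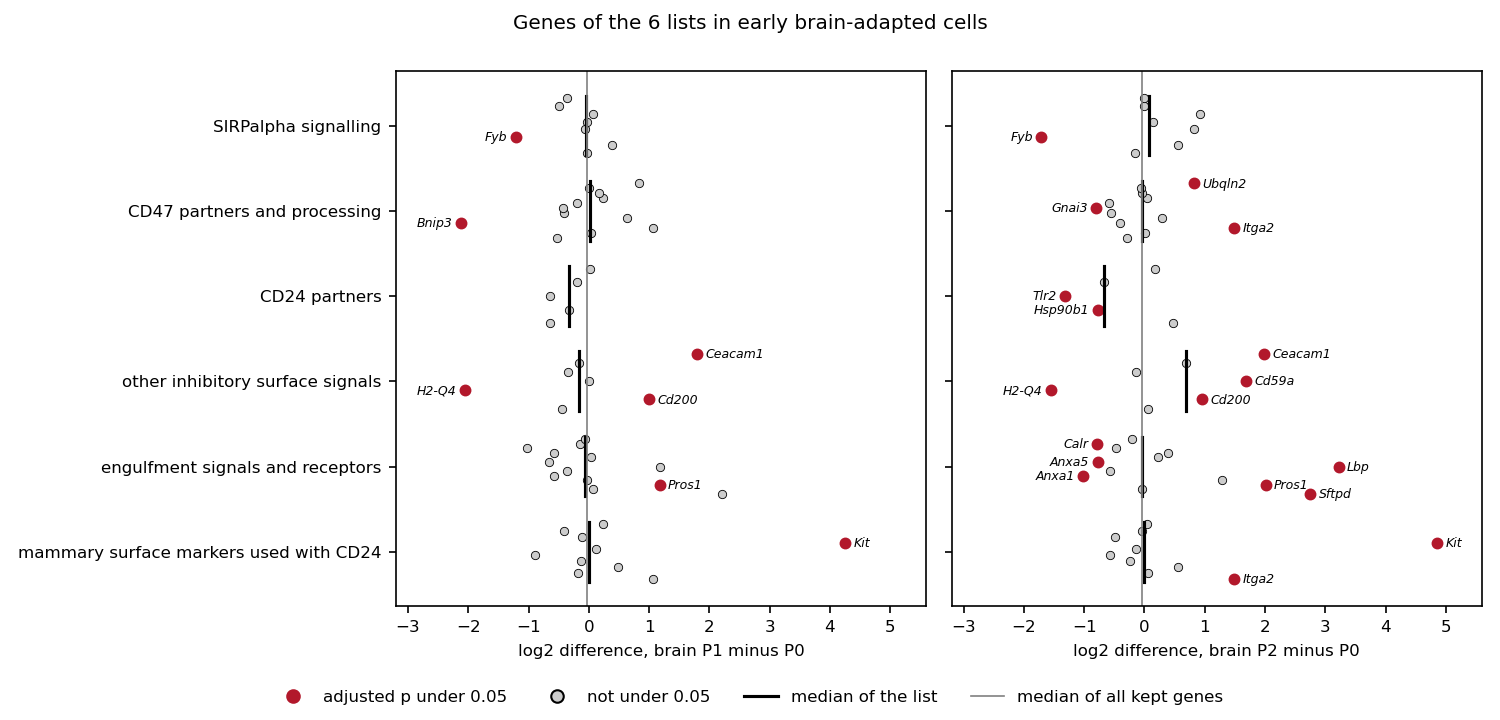
Log2 difference from P0 (horizontal axis) at brain P1 (left) and brain P2 (right) for the kept genes of the 6 lists, members left out, with red points for an adjusted p under 0.05, black bars for list medians and a grey line for the median of all kept genes. Called genes lie on both sides of 0, from Bnip3 (-2.12) to Kit (4.25) at brain P1 and from Fyb (-1.71) to Kit (4.85) at brain P2.

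The members did not share one pattern. Over the 16 group means Pearson's r was 0.43 between Sirpa and Cd47, 0.49 between Sirpa and Cd24a and -0.17 between Cd47 and Cd24a, values that are a description of groups with shared P0 arrays and array effects. Among the 7299 other kept genes those most like Sirpa were Wwc1 (r = 0.91), Zfpm2 (0.90), Erich1 (0.90), Cltc (0.88) and Snx8 (0.87), and those most opposite were S100a14 (-0.95), Jak2 (-0.91) and Szrd1 (-0.89). Over the 13 groups other than P0, brain P1 and brain P2, the same 5 had r of 0.81 to 0.89 and S100a14 had -0.91. Cd47 was closest to Rexo1 (0.85), Galnt2 (0.85), Dlc1 (0.83), Vmp1 (0.83) and Zfhx3 (0.82) and most opposite to Dgat1 (-0.84), Mapk13 (-0.83) and Csk (-0.76). Cd24a was closest to Stim1 (0.88), Dynll2 (0.84), Gemin7 (0.84), Fzd2 (0.84) and Tmem106b (0.83) and most opposite to Ube2j1 (-0.91), Faf1 (-0.91) and Stard13 (-0.89). Over the same 13 groups the 5 genes nearest to Cd47 had r of 0.84 to 0.89, but of those nearest to Cd24a, Gemin7 had 0.70, Tmem106b 0.61 and Fzd2 0.59. With Cd47, 0 genes reached an r over 0.9 or under -0.9, and with Cd24a 0 genes were over 0.9 and 2 under -0.9.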

How the data were processed

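RNA from 21 cell cultures was hybridized to Affymetrix Mouse Gene 1.0 ST arrays. The deposited values are log2 signals that the authors summarized and normalized by RMA in Expression Console, and the build behind the probe annotation is not given in the sources used here. Of 34760 probe sets, 21640 had 1 gene symbol, 1321 several and 11799 none, and only those with 1 symbol were named. The 10522 probe sets with the highest maximal group mean, the number kept in the study's methods, were fitted in limma 3.58.1 (R 4.3.3) with 1 mean per group over all arrays and eBayes (5 residual degrees of freedom). P-values were adjusted by Benjamini-Hochberg over all of them, with a threshold of 0.05, and counts are over the 7300 kept genes. Intervals are 95%, per comparison and unadjusted. For the 954 genes with several probe sets, the one that read highest on average stood for the gene.

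Members and gene lists were chosen with earlier results of these data known. Besides the members and their direct partners, each list contributed the genes called against P0, at most the 4 with the lowest adjusted p in brain P1 or P2 and 2 elsewhere. Likeness was ranked by Pearson's r (5 highest, 3 lowest), and each marker list contributed the 2 genes with the highest median over the arrays. Comparisons for which the study had listed Sirpa or Cd24a on the same arrays were not tested. Alternatives were no filter, 7000 probe sets, other scalings, a variance trend, chromosome medians, the mean over probe sets, both brain experiments in 1 model, the technical replicates as a block within brain, and each array of a pair left out. The fit was tested on simulated data. The figures were drawn with matplotlib 3.10.9.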

Additional observations from a re-analysis of the deposited data

Results flagged for a closer look

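Sirpa in the second brain experiment stood 1.16 above early bone marrow and lung cells on the log2 scale, with both brain arrays above all 4 others (limma, adjusted p = 0.031). This call was lost in 3 of 8 alternative settings. Sirpa was 2.91 higher in early than in late brain cells, with the 4 early arrays above the P0 mean and the 4 late arrays below it, a difference that was not tested because the gene had been listed on these arrays. Sirpa was also 1.86 higher in the second brain experiment than in late brain cells of the first, again on opposite sides of the P0 mean, and this difference was not tested. Cd47 was 0.581 higher in the second brain experiment than in bone marrow cells, with both brain arrays above and all 4 marrow arrays below the P0 mean, and this difference was not tested either. On the other probe set of Cd47, P2 of the second experiment differed from P0 by -0.015, so the separation around the P0 mean did not hold there.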

How the results depend on the processing

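The brain arrays labelled technical replicates could be fitted as a block of their own in comparisons among brain passages, an alternative chosen after seeing the data. No label ties them to a P0 array. Their deviations correlated across passages at r of 0.12 to 0.41. With this block Cd47 had adjusted p of 0.15 at brain P3 against P2, 0.30 at P4 against P3 and 0.098 in late against early brain, no member's call changed, and 2150, 68 and 2389 genes were called. Sirpa kept its direction but not its call in the second brain experiment against P0 (main 1.43), at its P1 (1.37), against early bone marrow and lung (1.16) and at bone marrow P4 (-1.97). Without a filter these values had adjusted p of 0.50, 0.42, 0.34 and 0.29, and with a variance trend and robust estimation 0.069, 0.070, 0.053 and 0.074. Without the 5 arrays whose dimmest probe sets read highest, an alternative chosen after seeing the data, they were 1.43, 1.37, 1.33 and -1.97 (adjusted p of 0.32, 0.23, 0.25 and 0.48), and this setting also leaves fewer arrays for the spread. Leaving out single arrays gave ranges of 1.17 to 1.69, 1.11 to 1.63 and, at bone marrow P4, -2.24 to -1.71. Of the untested values, Sirpa at brain P1 and P2 was 2.11 and 2.02 with both experiments in 1 model and ranged over 2.32 to 2.85 and 2.13 to 2.65 with single arrays left out. Cd24a at brain P1 and P2 was 0.245 and 0.645 with both experiments, and at brain P2 it ranged over 0.502 to 1.43. Without the 5 arrays, Sirpa at brain P3 against P2 was -3.34, and Cd24a was 0.502 at brain P2, -0.54 at brain P3 against P2 (single arrays left out, -1.48 to -0.554) and -0.384 in late against early brain. Some small differences, none called, changed sign. For Sirpa these were brain P4 (0.0297 with equal medians, 0.0191 with cyclic loess, 0.0484 with chromosome medians, single arrays -0.389 to 0.134) and lung (0.0179 with chromosome medians, single arrays -0.331 to 0.191). For Cd47 they were brain P2 (0.155 as the mean over probe sets, 0.00604 with both experiments), brain P4 (0.00098 with equal medians, 0.0393 with chromosome medians, 0.00236 without the 5 arrays, single arrays -0.315 to 0.00236) and lung (single arrays -0.0188 to 0.107). For Cd24a they were brain P3 (0.0329 with equal medians, 0.0668 with chromosome medians, single arrays -0.144 to 0.0399), bone marrow (single arrays -0.119 to 0.0644) and breast (-0.0072 with equal medians, single arrays -0.0887 to 0.095). Cd47 at brain P3 against P2 passed as the mean over probe sets (-0.692, adjusted p = 0.036). Genes called numbered 405 at brain P1 and 969 at brain P2 and 0 in both with both experiments in 1 model. Over the alternatives they ranged from 11 to 2150 for brain P3 against P2 (main 1727), from 112 to 2389 for late against early brain (2010), from 1 to 111 at brain P3 (48), from 1 to 108 at brain P4 (74), from 0 to 183 at brain P4 against P3 (46), from 0 to 93 in the second brain experiment (23), from 0 to 362 at its P1 (113), from 0 to 7 at its P2 (0), from 2 to 159 against early marrow and lung (62), from 6 to 53 on bone marrow (27), from 0 to 28 at bone marrow P4 (16), from 1 to 32 on lung (15), from 0 to 53 for marrow against lung (9), from 0 to 51 on breast (19) and from 0 to 20 for late brain against late marrow and lung (3). The cause of these changes was not tested.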

Other observations

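Within each of the brain, bone marrow and lung series, the level of Cd47 was at its lowest at P3, with 9.97 and 10.14 in brain, 9.97 in bone marrow and 10.34 in lung cells, against 10.60 and 10.47 at P0. This was noticed after the values were seen and was not tested.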
